A study of Mus musculus with 12 samples.

Results

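The genes described here are the nuclear-encoded genes of mitochondrial respiration and of the mitochondrial ribosome, in mouse embryonic stem (ES) cells and in neural progenitor cells (NPC) grown from them. They were chosen by name alone. A gene was a member where its first listed symbol began with Nduf, Uqcr, Sdh, Atp5, Cox4, Cox5, Cox6, Cox7, Cox8, Mrpl or Mrps and it did not lie on the X chromosome. These names held 136 of the 14899 genes of the table, which has 14415 autosomal genes, and 2 X-linked genes of the same families, Cox7b and Ndufb11, were left out. The members were 30 complex I subunits, 4 complex II subunits, 5 complex III subunits, 12 complex IV subunits, 15 genes named for complex V, 2 complex I assembly factors, 2 complex II assembly factors, and 43 large and 23 small subunit proteins of the mitochondrial ribosome. Names do not always match function: Cox4nb is an older symbol of Emc8, which encodes no cytochrome c oxidase subunit, Atp5sl is now known as a complex I assembly factor, and Ndufa4 is now placed in complex IV.

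Mitochondria make ATP by passing electrons from NADH and succinate through complexes I, II, III and IV to oxygen, and complex V, the ATP synthase, uses the proton gradient that this builds. Most subunits are encoded in the nucleus and imported, while a few core subunits are encoded by mitochondrial DNA and made inside the organelle by its own ribosome, whose proteins (Mrpl for the large and Mrps for the small subunit) are again nuclear products. Pluripotent cells are known for a strongly glycolytic metabolism and an immature mitochondrial network, which changes as cells enter the neural lineage.

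Polyadenylated RNA was sequenced from hybrid cells that carry 1 genome of strain 129Sv and 1 of Cast/EiJ, so that RNA of the alleles can be told apart at positions where the strains differ. The ES samples were 1 library of line F1-21.6 (XX) and 1 of line F1-23 (XY), both cultured in serum and LIF over inactivated mouse embryonic fibroblasts (feeder cells). The NPC samples were 4 clones of the XX line, named 129, C2, G4 and E1.2, and 4 clones of the XY line, named mC3, mE6, mB4 and mG3, with 1 library per clone. In the names used here, clone 129 is a cell clone and the 129 allele is a parental genome. All 10 libraries carry the same hybrid genotype, with no deletion, transgene or drug named in the labels. The labels give no age or passage, and each clone is a separate culture grown from 1 ES line, so p-values measure the spread between these clones. Repeat libraries of C2 and mC3 were left aside. Library names of the XX clones begin with GEI and those of all other libraries with GUR. Among the clones the line, its sex chromosomes and the library set therefore cannot be told apart. In the XX line, cell type and library set also change together.

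The table lists, per gene and library, allele-informative counts, the 129 share of those counts, and FPKM, a level per transcript length and depth. Total counts ran from 61375911 to 119266777 per library. The highest count over the clones was 11 or more for every gene listed, while 1635 genes stayed under 11 in both ES libraries. Genes without counts in the clones are therefore not analysed here. The summed FPKM of 9 neural progenitor markers was 177 and 157 in the XX and XY ES libraries and 3149 to 5848 in the clones. Fabp7, at 1533 to 3426 FPKM, was the largest part in the clones, and Vim, at 163 and 133, made up most in ES. By the test described below 7 of the 9 were higher in NPC, while Sox1 and Hes5 did not pass. Sox1 had 0.851 and 0.505 FPKM in the XX and XY ES libraries and 0.00308 to 7.65 in the clones. For Hes5 the values were 0.488 and 0.916 against 0.324 to 21.1. That of the 4 pluripotency markers listed was 691 and 483 against 48.0 to 98.2. Most of the sum in the clones was Sox2, at 45.9 to 94.3 FPKM, against 248 and 217 in the XX and XY ES libraries. Esrrb, Klf4 and Tcfcp2l1 were each at most 3.38 FPKM in the clones and at least 30.2 in the ES libraries. The summed FPKM of 8 fibroblast markers was 27.2 and 46.9 in those libraries and 42.3 in clone E1.2, against 1.19 to 5.76 in the other clones. Of the 8, 6 were higher in E1.2 than in any other clone, with Col3a1 at 24.2 FPKM making up most of its sum, while Col1a1 was 0.161 FPKM in E1.2, within the other clones (0.0709 to 0.422) and below the ES libraries (10.2 and 24.9). The summed FPKM of 5 astrocyte markers was 236 in clone E1.2 and 35.9 to 121 in the other libraries, and 4 of the 5 were highest in E1.2 among the clones. In the XX and XY ES libraries nearly all of this sum, 47.6 and 65.5, was Gja1, at 47.4 and 65.2 FPKM. Fewer cells of a type and less RNA per cell cannot be told apart in such bulk samples.

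Mitochondrial ribosome genes were mostly lower in NPC than in ES cells, while most respiration genes did not pass the test. Of 133 members with enough counts to test, 55 were lower and 13 higher in the 8 NPC clones than in the 2 ES libraries by edgeR's quasi-likelihood test with line as a covariate (Benjamini-Hochberg adjusted p under 0.05), and 65 did not pass. Among all 14561 genes tested, 63.0% passed, 29.7% as lower and 33.3% as higher. Genes without counts in the clones are not listed, so genes read in ES cells only are missing from these and other values over all genes. The CPM of the groups did not overlap in 72 of the 133 members (54.1%) and in 62.0% of all genes tested. Among those called it did not overlap in 64 of 68 members (94.1%) and in 92.7% of genes. The median log2 fold change, NPC minus ES, was -0.21 over the members and 0.11 over all genes. It was -0.53 over the 66 ribosome members, of which 39 were lower and 4 higher, and -0.08 over the 67 respiration members tested, of which 16 were lower and 9 higher. Uqcrb, Ndufb9 and Cox8b had too few informative counts to test, at most 18 in any library, although the FPKM of Uqcrb was 91.6 to 135 and that of Ndufb9 134 to 212. Scaling by library totals instead of TMM factors moved the median of all genes to -0.05 and that of the ribosome members to -0.70. Such a change moves all genes by nearly the same amount. The ribosome members' median relative to all genes, -0.65 under both scalings, therefore cannot test the scaling.

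**Figure D1:**
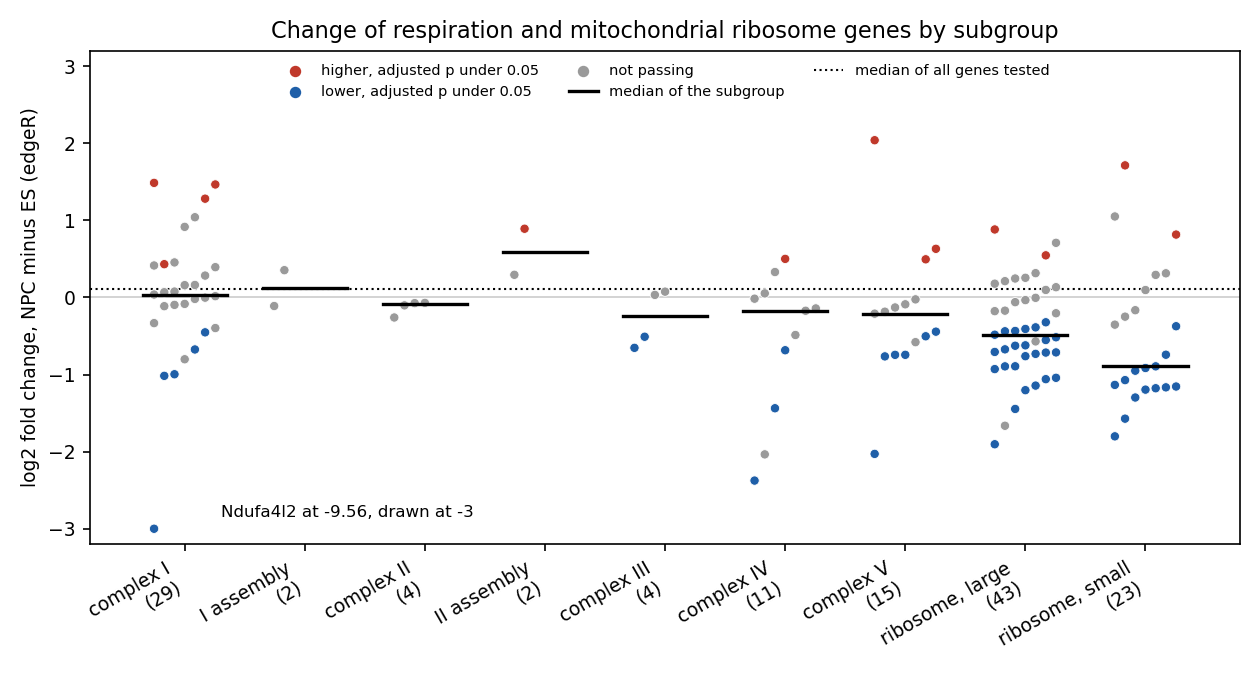
Log2 fold change of NPC against ES (vertical axis, edgeR) for each of the 133 tested members (points), grouped by complex with the number tested in parentheses; colour gives the call at an adjusted p of 0.05, short lines are subgroup medians and the dotted line is the median of all genes tested. The medians of the ribosome subunits, -0.48 (large) and -0.89 (small), lie lowest of the subgroups, and Ndufa4l2, at -9.56, is drawn at the lower edge of the axis.

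Some of these counts depended on which ES library took part. Line was a covariate. A fit that leaves out an ES library, here and below, compares only the other ES library with the 4 clones of its line. With only the set that holds both ES lines and the XY clones, the XX ES library is alone in its line. That fit, like the one without the XX ES library, compares the XY ES library with the XY clones. They are therefore no separate checks, and each rests on an unreplicated ES library. Without the XX ES library, 37 members were lower and 7 higher, the respiration members lower fell from 16 to 8 and those higher from 9 to 5, and the ribosome members lower went from 39 to 29 and those higher from 4 to 2. With only the library set that holds both ES lines and the XY clones, 39 members were lower and 7 higher, among them 28 ribosome members lower and 0 higher. Without clone E1.2, 54 members were lower and 12 higher, with 37 ribosome members lower. For these reduced sets of libraries the share called over all genes was not recorded. A loss of calls particular to the members therefore cannot be told from a loss over all genes. FPKM gave a separate measure of the same samples. On the log2(FPKM + 1) scale, tested with limma, 67 of the 68 members called by counts had the same sign and 56 were called in the same direction; none was called the other way, and the exception in sign was Ndufb5. Of the 39 ribosome members lower by counts, 38 were also lower by FPKM, while of the 13 members higher by counts 7 were higher by FPKM.

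**Figure D2:**
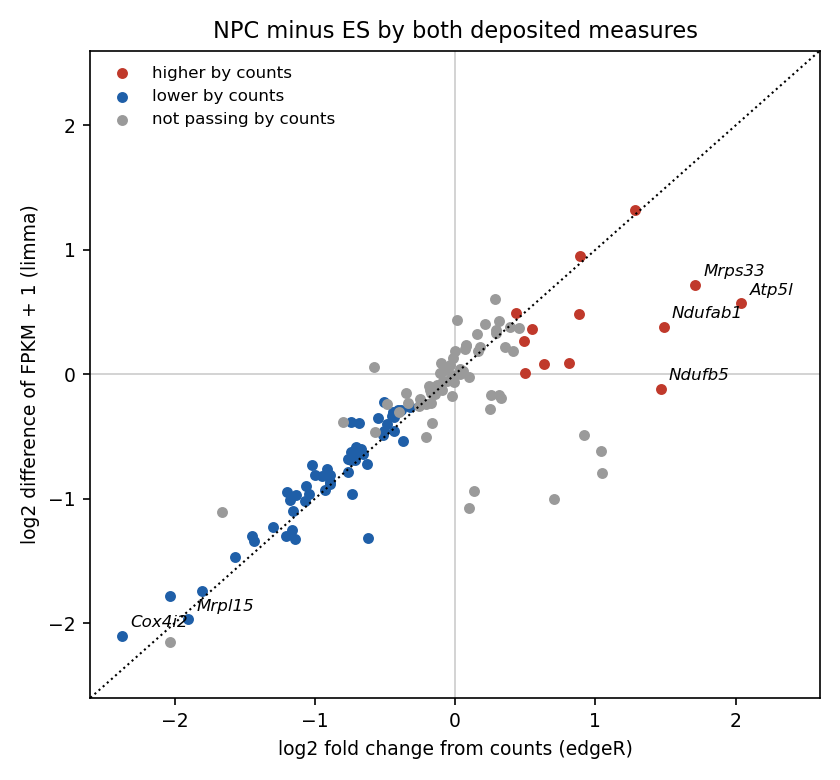
Each point is a tested member, with its NPC minus ES change from counts on the horizontal axis (log2, edgeR) and from FPKM on the vertical axis (log2 of FPKM + 1, limma); colour gives the call by counts, the dotted line marks equal values, and Ndufa4l2 lies outside the axes. Members lower by counts lie near the line, whereas Ndufb5, Ndufab1, Atp5l and Mrps33 changed more by counts than by FPKM.

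In the large ribosomal subunit 25 of 43 members were lower, 2 were higher and 16 did not pass. Beside these counts and those of the subgroups below, 29.7% of all genes tested were lower and 33.3% higher. The largest changes were in Mrpl15, Mrpl45 and Mrpl24, all structural proteins of the large subunit. Mrpl15 (build mm9, chr1:4763279-4776653) had 199 and 195 CPM (counts as a rate over the TMM-scaled library total, comparable between libraries but not between genes) in the XX and XY ES libraries. The XX clones, here and below in the order 129, C2, G4, E1.2, had 52.8, 54.4, 45.8 and 46.5 CPM, and the XY clones, in the order mC3, mE6, mB4, mG3, had 47.4, 60.3, 52.1 and 62.2 CPM. Every clone thus lay far below both ES libraries, and clones of the XX and XY lines overlapped. Its level was 3.74-fold lower in NPC (log2 -1.90, SE 0.11, edgeR adjusted p = 2.22e-06), and FPKM fell from 121 in each ES library to between 24.7 and 38.1. Mrpl45 went from 177 and 211 CPM in ES to a range of 61.0 to 83.0 with a median of 70.2 in the clones (log2 -1.45, SE 0.10, edgeR adjusted p = 5.2e-06). Mrpl24 went from 79.3 and 73.1 CPM to a range of 29.0 to 39.2 with a median of 32.8 (log2 -1.20, SE 0.10, edgeR adjusted p = 1.68e-05). For both genes the groups did not overlap. The 2 large subunit members that were higher, Mrpl33 and Mrpl41, were so by log2 0.55 and 0.88, and they are named only because the count is small.

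In the small subunit 14 of 23 members were lower, 2 were higher and 7 did not pass, with a median log2 of -0.89. Mrps24 (mm9, chr11:5603986-5607702) had 180 and 213 CPM in the XX and XY ES libraries, 61.9, 84.1, 63.1 and 67.9 in the XX clones and 65.5, 58.9, 61.7 and 67.5 in the XY clones. All clones lay below both ES libraries, at 2.97-fold lower in the fit (log2 -1.57, SE 0.13, edgeR adjusted p = 1.08e-05). Mrps24 overlaps exons of a gene on its own strand, Urgcp, and reads of both may be counted together. Mrps18b, a member of the S18 family of which vertebrate mitochondria have several homologs, had 9.23 and 9.24 CPM in the ES libraries and 2.16 to 3.57 in the clones with a median of 2.44 (log2 -1.80, SE 0.23, edgeR adjusted p = 0.000163). Mrps33 went the other way, from 0.635 and 0.747 CPM in ES to a range of 1.41 to 3.80 with a median of 2.22 (log2 1.71, SE 0.42, edgeR adjusted p = 0.00614). It had no more than 332 counts in any library, and its adjusted p was 0.0758 with the shared library set alone. Across the ribosome members, 15 of the 39 that were lower fell more than 2-fold.

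**Figure D3:**
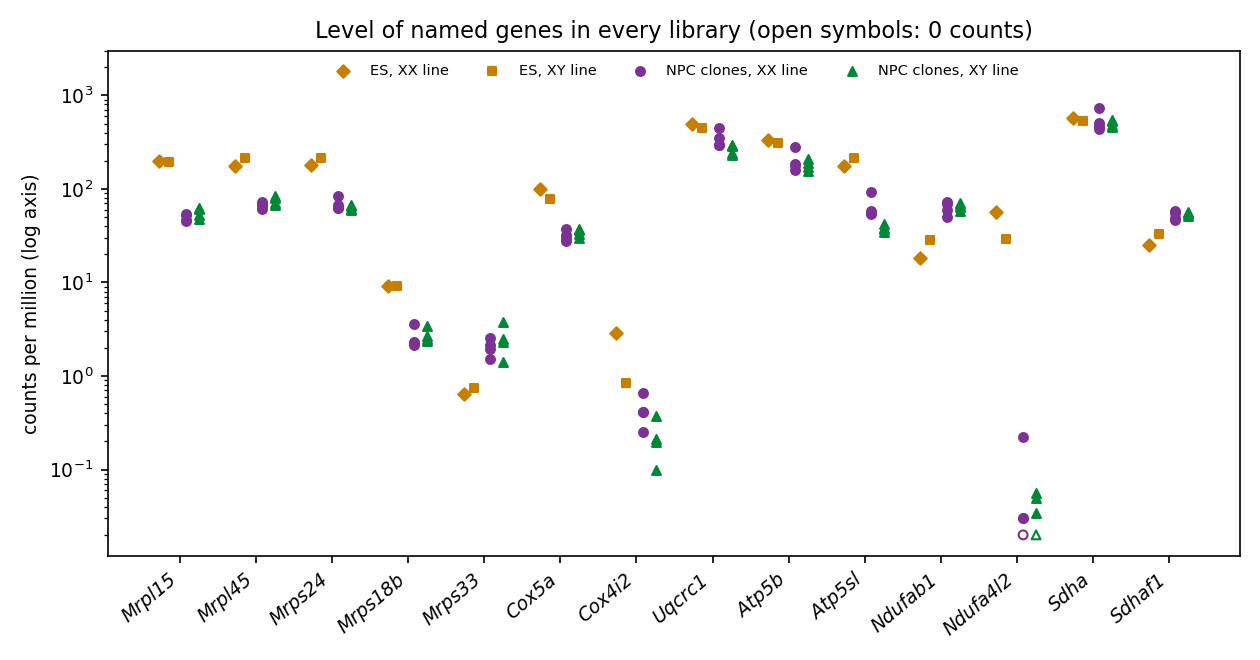
Level of 14 named members in each of the 10 libraries, in TMM-scaled CPM on a log axis; diamonds and squares are the ES libraries of the XX and XY lines, circles and triangles the NPC clones of those lines, and open symbols stand for 0 counts. Clones lie below both ES libraries for the 4 ribosome genes from Mrpl15 to Mrps18b, above them for Mrps33, Ndufab1 and Sdhaf1, and across them for Sdha.

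Complex I, the NADH dehydrogenase, showed no common direction. Of 29 subunit genes tested 5 were lower and 4 higher, beside 29.7% and 33.3% of all genes tested. The median log2 was 0.04, which became -0.13 when library totals replaced TMM. Ndufa4l2, a paralog of Ndufa4 known as a target of hypoxia-inducible factor, changed most of all members. It had 56.0 and 28.8 CPM in the XX and XY ES libraries (3794 and 2044 counts). Among the clones it had 0 counts in 129 and mB4, 3 in each of C2, G4 and mG3, 4 in mE6, 5 in mC3 and 25 in E1.2, which is 0.221 CPM there and at most 0.0556 CPM elsewhere. The log2 change was -9.56 (SE 0.85, edgeR adjusted p = 1.87e-05), and its size depends on counts near 0. By contrast Ndufa4 itself had 85.5 and 77.3 CPM in ES and 73.9 to 101 in the clones, and did not pass (log2 0.16, SE 0.13, edgeR adjusted p = 0.293). Ndufab1, the mitochondrial acyl carrier protein that also serves as a complex I subunit, went from 18.1 and 28.1 CPM to a range of 50.1 to 72.7 with a median of 66.2 (log2 1.49, SE 0.19, edgeR adjusted p = 0.00016). On the FPKM scale its difference was 0.38 with a limma adjusted p of 0.109. Ndufb5, an accessory subunit, went from 11.996 and 8.80 CPM to 18.8 to 40.4 (log2 1.47, SE 0.21, edgeR adjusted p = 0.000312), but its FPKM, 112 and 83.5 in ES and 77.1 to 101 in the clones, differed by -0.11 with a limma adjusted p of 0.475. Its exons overlap those of Mrpl47 on the other strand, and the counting is not stated to use strand, so reads of this pair cannot be told apart. The same limit holds for other members. Exons of 32 of the 136 members overlap a gene on the other strand, among them Mrpl24, Mrps18b, Ndufa4l2, Sdhaf1 and Cox5a.

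The 4 subunits of complex II, succinate dehydrogenase, which links the tricarboxylic acid cycle to the respiratory chain, did not pass in either direction. Sdha, the flavoprotein, had 573 and 528 CPM in ES, 442, 511, 474 and 739 in the XX clones and 463, 537, 486 and 541 in the XY clones. The groups overlapped, with clone E1.2 above both ES libraries (log2 -0.07, SE 0.18, edgeR adjusted p = 0.748). Sdhb, the iron-sulfur subunit, had 64.6 and 59.5 CPM in ES and 42.9 to 77.8 in the clones (log2 -0.26, SE 0.18, edgeR adjusted p = 0.238), and passed as lower without clone E1.2 (log2 -0.34, edgeR adjusted p = 0.0231). The membrane anchors Sdhc and Sdhd changed by -0.07 (SE 0.17) and -0.10 (SE 0.20) on the log2 scale. The assembly factor Sdhaf1 was higher, from 25.2 and 32.6 CPM in ES to a range of 47.0 to 58.6 with a median of 54.5 in the clones, without overlap (log2 0.89, SE 0.13, edgeR adjusted p = 0.000264). Sdhaf2, which helps attach the flavin to Sdha, had 28.7 and 25.7 CPM in ES and 30.1 to 39.3 in the clones (log2 0.29, SE 0.13, edgeR adjusted p = 0.0734).

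In complex III, ubiquinol-cytochrome c reductase, 2 of 4 tested subunits were lower, beside 29.7% of all genes tested. They were the core proteins Uqcrc1 and Uqcrc2. Uqcrc1 had 495 and 453 CPM in ES and 233 to 449 in the clones with a median of 293, and only E1.2, at 449, came close to the ES libraries (log2 -0.65, SE 0.17, edgeR adjusted p = 0.00811). Its adjusted p was 0.131 without the XY ES library.

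In complex IV, cytochrome c oxidase, 3 of 11 tested genes were lower and 1 was higher, the latter being Cox4nb. Of all genes tested 29.7% were lower and 33.3% higher. Cox5a, a subunit of the matrix side, had 101 and 77.8 CPM in the XX and XY ES libraries, 32.0, 30.2, 27.7 and 37.6 in the XX clones and 30.02, 37.3, 32.7 and 36.2 in the XY clones. The groups lay far apart and the clones of both lines overlapped (2.71-fold lower, log2 -1.44, SE 0.14, edgeR adjusted p = 3.03e-05). Of the paralogs of subunit 4, Cox4i1, the ubiquitous form, went from 35.5 and 29.9 CPM to 15.9 to 25.2 (log2 -0.68, SE 0.17, edgeR adjusted p = 0.00602), and its FPKM difference, -0.39, had a limma adjusted p of 0.0813. Cox4i2, the isoform known from lung and from low oxygen, went from 2.91 and 0.846 CPM to 0.099 to 0.660 (log2 -2.38, SE 0.48, edgeR adjusted p = 0.00206). With at most 197 counts in any library it was among the least counted members, and without the XX ES library its adjusted p was 0.0574. Cox6b2, an isoform best known from testis, had 48.1 and 47.3 CPM in ES and 0.83, 18.3, 2.55, 9.10, 15.5, 28.0, 8.46 and 29.3 CPM in clones 129, C2, G4, E1.2, mC3, mE6, mB4 and mG3. All clones lay below both ES libraries, but they spread so widely that the test did not pass (log2 -2.04, SE 0.84, edgeR adjusted p = 0.0587). Its adjusted p was below the threshold in 5 of 19 alternatives, with DESeq2 (0.0245), library totals (0.0428), limma on log2(FPKM + 1) (0.0466), without clone 129 (0.039) and without C2 (0.0284). The other isoform genes tested, Cox6a1, Cox7a2, Cox7a2l and Cox8a, did not pass, with log2 changes from -0.49 (Cox7a2l) to 0.05 (Cox7a2).

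In complex V, the ATP synthase, 6 of 15 genes were lower and 3 higher, beside 29.7% and 33.3% of all genes tested. Atp5b, the catalytic beta subunit, was the member with the highest FPKM, with 1387 and 1317 in the XX and XY ES libraries and a mean of 796 in the clones. By counts it had 335 and 310 CPM in ES and 154 to 277 in the clones with a median of 182, again with E1.2 as the highest clone (log2 -0.76, SE 0.19, edgeR adjusted p = 0.00626). Leaving out either ES library raised the adjusted p to 0.0524 or 0.0646. Atp5sl, which despite its name is not an ATP synthase subunit, had 176 and 214 CPM in the ES libraries, 57.6, 54.0, 55.3 and 91.6 in the XX clones and 37.9, 42.1, 37.0 and 34.8 in the XY clones. The groups did not overlap, and clone E1.2 stood above the other clones (log2 -2.03, SE 0.23, edgeR adjusted p = 7.92e-05). Atp5l, a membrane subunit, rose from 0.665 and 0.465 CPM to 1.48 to 3.16 (log2 2.04, SE 0.31, edgeR adjusted p = 0.000386), but it had at most 326 counts and 10 near-identical copies elsewhere in the genome, so its counts are uncertain. Among the paralogs that encode the same c-ring protein, Atp5g1 was lower (log2 -0.74, SE 0.19, edgeR adjusted p = 0.00761), Atp5g2 was higher (log2 0.63, SE 0.22, edgeR adjusted p = 0.0334) and Atp5g3, which had the highest FPKM of the 3, did not pass (log2 -0.13, SE 0.17, edgeR adjusted p = 0.517). The calls of Atp5g1 and Atp5g2 were lost on the FPKM scale, with limma adjusted p of 0.0752 and 0.582. The call of Atp5g2 was lost in 8 of 19 alternatives, and it has 3 near-identical copies. Its log2 change was 0.23 in the XY line (without the XX ES library) and 1.14 in the XX line (without the XY ES library).

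The clones were not alike in their respiration genes. The median over respiration members of the log2 ratio of a clone's CPM to the mean ES CPM lay between -0.23 and 0.00 in 7 clones and was 0.26 in clone E1.2. For ribosome members it lay between -0.68 (G4) and -0.29 (mG3) in all 8 clones, with E1.2 at -0.59, while over 12672 genes with at least 1 CPM it was -0.04 to 0.03. Of 67 respiration members 40 (59.7%) had their highest level among the 8 clones in E1.2, among them all 4 complex II and all 4 tested complex III subunits. The same was true of 5 of 66 ribosome members (7.58%) and of 2725 of the 12672 genes (21.5%). Against the mean of the other XX clones, the median difference of respiration members in E1.2 was 0.33 on the log2 scale, and that of ribosome members was -0.03. E1.2 also had the highest summed fibroblast and astrocyte markers of the clones, although not for Col1a1, and their part in these values was not tested. As a share of all FPKM the members made up 3.31% and 3.94% in the XY and XX ES libraries, 3.44% to 4.13% in 7 clones and 4.96% in E1.2. As a share of all counts they made up 1.03% and 1.11% in the XY and XX ES libraries and 0.637% to 0.817% in the 8 clones, so that the groups did not overlap by counts but did by FPKM.

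**Figure D4:**
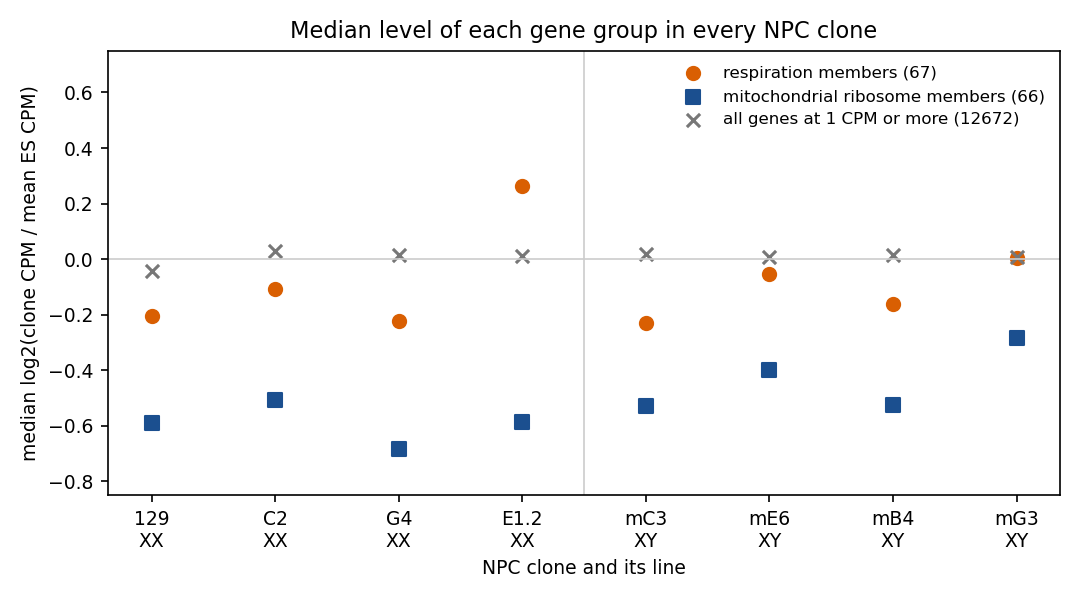
Median over respiration members (circles), ribosome members (squares) and all genes with at least 1 CPM in ES or NPC (crosses) of the log2 ratio of a clone's CPM to the mean CPM of the ES libraries, for each of the 8 NPC clones on the horizontal axis. The squares lie below 0 in every clone, and the circle of clone E1.2, at 0.26, is the highest.

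Line by line, in a fit where each ES library stands alone and is assumed to vary like the clones, 48 members were lower and 14 higher in the XX line. Over all genes 51.2% passed, 23.3% as lower and 28.0% as higher. In the XY line 39 were lower and 6 higher, beside 47.3% of all genes, 22.3% lower and 25% higher. Ribosome members lower numbered 35 of 66 and 29 of 66. The members higher in the XX line went from 14 to 8 without clone C2. The interaction of line and cell type passed for 0 of 135 members by edgeR, beside 0.101% of all genes (0.0808% higher and 0.0202% lower in the XX line). At an unadjusted p under 0.05 it passed for 8 members (5.93%) and for 10.97% of all genes, and no other tool was run on it. In the XX line the ES library and the clones differ in library set (GUR and GEI), while in the XY line they share it. Changes in the XX line and the interaction therefore cannot be told apart from library set. Between XX and XY clones 1 of 131 tested members differed by edgeR, beside 1.29% of all genes (0.876% higher and 0.412% lower in XX). Mrps18c, a small subunit protein, had 6.11, 6.22, 5.96 and 4.61 CPM in the XX clones and 2.02, 2.51, 2.29 and 2.74 in the XY clones. The lines did not overlap (log2 1.25, SE 0.19, edgeR adjusted p = 0.0355). However, its FPKM differed by only 0.08 (limma adjusted p = 0.593), and the call was lost without C2, G4 or any XY clone. DESeq2 called 11 members and limma on FPKM 2, and the shares over all genes with these tools were not recorded.

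Genes outside these names, of mitochondria, of their regulation in the nucleus and of energy metabolism in the cytosol, were described from fixed lists. Beside each count below, 29.7% of all genes tested were lower and 33.3% higher by the same test. Of 24 mitochondrial translation factors, such as tRNA synthetases and elongation factors, 15 were lower and 2 higher in NPC, with a median log2 of -0.59. Of 27 assembly factors and electron carriers of respiration with other names, 12 were lower and 4 higher (median -0.31). Lrpprc, which binds and stabilises mitochondrial mRNA, fell by 1.26 (SE 0.12, edgeR adjusted p = 3.13e-05). Of 16 import genes 10 were lower and 2 higher (median -0.64), and of 16 tricarboxylic acid cycle genes 5 were lower and 1 higher (median 0.00). Among 20 genes of mitochondrial DNA expression and biogenesis 8 were lower and 3 higher. The 3 that were higher were Ppargc1a, Myc and Yy1. Ppargc1a, a coactivator known to drive mitochondrial biogenesis, had 0 counts in both ES libraries and 13.7 to 89.8 CPM in the clones, with E1.2 highest. Myc, a growth-promoting transcription factor, went from 6.62 and 10.3 CPM in the XX and XY ES libraries to 39.6 to 84.1 in the clones (log2 2.90, SE 0.35, edgeR adjusted p = 9.98e-05). Lower were, among others, Tfam, which packages mitochondrial DNA and drives its transcription (log2 -1.11, SE 0.17, edgeR adjusted p = 0.000361), and Nrf1, a transcription factor of respiration genes (log2 -0.81, SE 0.14, edgeR adjusted p = 0.00096). Yy1, another factor known to bind such promoters, was also higher (log2 0.41, SE 0.12, edgeR adjusted p = 0.0131), and Gabpa, an ETS family factor, lower (log2 -0.41, SE 0.11, edgeR adjusted p = 0.01). Of 17 genes listed for glycolysis 14 were lower and 1 higher, with a median of -2.80. The list includes glucose transporters (Slc2a1, Slc2a3) and the kinase Pdk1 beside enzymes of the pathway. Gapdh, the higher gene, went from 16.7 and 17.6 CPM in the XX and XY ES libraries to 103 to 278 in the clones. Its FPKM went the other way, from 4.05 and 5.10 to 1.63 to 3.47. Of 6 mitochondrial ribosome proteins with other names 2 were lower and 0 higher by edgeR (median -0.44).

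Promoters of these genes are known for sites of NRF1, of ETS factors such as GABPA, and of YY1. RefSeq promoters (build GRCm38.p6, from 250 bases before to 50 after the start) matched 117 of the 136 members, 3 of them through a newer symbol. The letters GCGCA followed by TGCGC (NRF1), CCGGAAGT (ETS) and AAGATGG followed by CGG (YY1) were searched on both strands. The NRF1 letters were in 8 of 117 member promoters (6.84%) and in 2.17% of the 10245 autosomal genes of the table with a promoter. The ETS letters were in 14 (11.97%) against 8.14%, and the YY1 letters in 9 (7.69%) against 1.97%. Over all 27025 genes with a promoter the shares were 1.07%, 4.31% and 0.995%. Among ribosome members the ETS letters were in 12 of 58, and among respiration members in 2 of 59. At least 1 of the 3 motifs was in 8 of 32 ribosome members that were lower in NPC and in 11 of the 26 others, beside 11.8% of the autosomal genes of the table and 6.15% of all genes with a promoter. The stretches below show the 120 bases before the start of members that were lower (Mrps27, Mrpl51, Mrpl43, Mrpl32, Ndufa11) and of 1 that was higher (Mrps26). The ETS letters can thus be seen in promoters of genes that moved either way. Among stretches not shown, that of Atp5g2, which was higher, holds the NRF1 letters. Others not shown belong to members that did not pass, among them Mrpl9 (NRF1) and Mrps22 (ETS). Capitals mark the searched letters, on either strand. Mrps27, Mrpl51, Mrpl43 and Mrps26 hold the ETS letters, and Mrpl32 and Ndufa11 the NRF1 letters, which read the same on both strands.
Mrps27 (chr13:99344666-99344785, plus strand): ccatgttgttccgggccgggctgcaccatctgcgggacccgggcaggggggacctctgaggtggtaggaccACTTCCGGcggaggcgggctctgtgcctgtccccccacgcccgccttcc
Mrpl51 (chr6:125192080-125192199, plus strand): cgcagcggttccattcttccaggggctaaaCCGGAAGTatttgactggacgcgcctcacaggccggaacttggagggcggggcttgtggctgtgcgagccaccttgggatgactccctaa
Mrpl43 (chr19:45006443-45006562, minus strand): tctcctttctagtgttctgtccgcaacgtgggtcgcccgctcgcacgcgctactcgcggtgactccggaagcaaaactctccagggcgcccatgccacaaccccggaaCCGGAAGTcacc
Mrpl32 (chr13:14613038-14613157, minus strand): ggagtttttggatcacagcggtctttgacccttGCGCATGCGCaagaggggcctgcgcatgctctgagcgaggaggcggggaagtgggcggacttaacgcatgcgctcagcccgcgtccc
Ndufa11 (chr17:56717642-56717761, plus strand): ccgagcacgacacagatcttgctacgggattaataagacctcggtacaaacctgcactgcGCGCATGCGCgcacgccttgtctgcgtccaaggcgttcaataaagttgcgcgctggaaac
Mrps26 (chr2:130563637-130563756, plus strand): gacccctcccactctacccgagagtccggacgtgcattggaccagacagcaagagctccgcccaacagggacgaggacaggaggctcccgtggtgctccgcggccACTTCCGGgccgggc
In Mrpl43 the letters begin 12 bases before the start, in Mrps26 15, in Mrps27 49, in Ndufa11 60, in Mrpl32 87 and in Mrpl51 90. The log2 changes of these genes were -0.32 (Mrpl43), 0.82 (Mrps26), -1.07 (Mrps27), -0.996 (Ndufa11), -0.55 (Mrpl32) and -0.63 (Mrpl51). A match of letters is no measured site, and 7 pairs of members lie within 100 kb of each other, among them Mrpl46 and Mrps11, 41 bases apart.

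The members used both alleles about equally in nearly every clone. Shares were read only from libraries with 20 or more informative counts of the gene. Monoallelic means here that 85% or more came from the same allele and that the exact binomial test of a balanced share gave a BH adjusted p under 0.05, and skewed means 70% or more. Of the 136 members 128 were testable in all 8 clones, 4 in 1 to 5 clones (Ndufa4l2, Cox4i2, Mrpl2, Mrps14) and 4 in none (Ndufb9, Uqcrb, Cox8b, Mrpl23). Of the 128, the 129 share stayed between 40% and 60% in every clone for 88 members and between 30% and 70% for 116. The SD of the share over the 8 clones had a median of 2.38 percentage points and ran from 0.688 to 25.2. Of the 128, 4 were monoallelic in at least 1 clone (3.125%), beside 16.5% of the 12108 autosomal genes testable in at least 6 clones. Skew in at least 1 clone was seen in 12 of the 128 (9.375%), beside 29.7%. The median count of members per library, 1802 to 3430, was above that of all autosomal genes, 1011 to 1975, so the count minimum was raised for both. With at least 500 counts in 6 or more clones, 1 of 113 members (0.885%) and 585 of 8909 autosomal genes (6.57%) were monoallelic in a clone. Per library, 0.769% to 3.85% of testable members were monoallelic and 5.12% to 8.37% of autosomal genes.

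**Figure D5:**
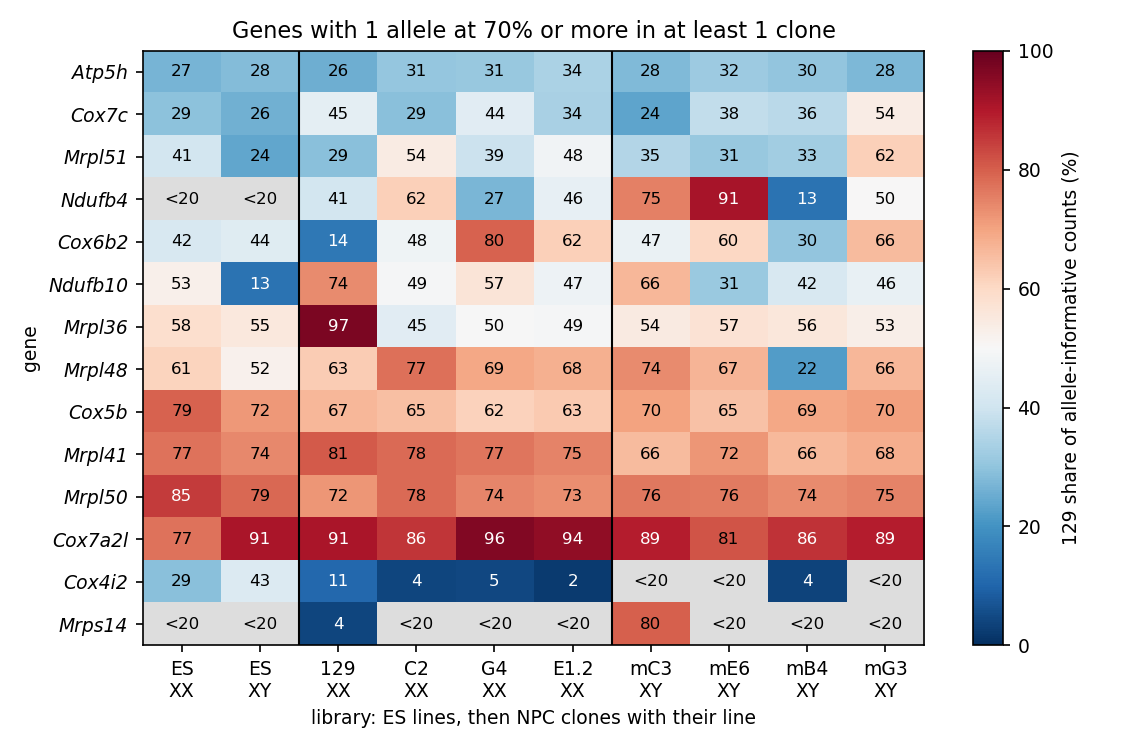
The 129 share of informative counts, in percent (number and colour), for the 14 members with 1 allele at 70% or more in at least 1 NPC clone (rows) in the 2 ES libraries and 8 clones (columns); grey cells marked <20 have under 20 counts. Cox7a2l and Mrpl50 lean to 129 and Cox4i2 to Cast in each testable clone, while Mrpl36 stands apart in clone 129 and Mrpl48 in clone mB4.

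Mrpl36, a large subunit protein encoded on chr13:73468457-73469626 (mm9), was monoallelic in a single clone. Its 129 share was 97.0% in clone 129 (595 counts, exact 95% interval 95.3% to 98.2%), 44.5%, 49.96% and 49.4% in the other XX clones, and 54.5%, 57.4%, 55.9% and 53.0% in mC3, mE6, mB4 and mG3. The ES libraries stood at 58.5% (XX) and 55.1% (XY). Clone 129 also had the lowest total level. The Cast allele gave 0.266 CPM there and 6.46 to 9.36 CPM in the other clones, while the 129 allele gave 8.54 CPM, inside the 7.18 to 11.1 CPM of the others. Its neighbour Ndufs6, a complex I subunit 2526 bases away, had a 129 share of 65.4% in clone 129.

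Cox6b2 (mm9, chr7:4703387-4704696) leaned to different alleles in different clones. Its 129 share was 14.3% in clone 129 (56 counts, interval 6.38% to 26.2%), 47.8% in C2, 79.7% in G4 (251 counts, 74.2% to 84.5%) and 61.8% in E1.2. In the XY clones it was 46.7%, 60.2%, 30.1% and 66.0%, and in the ES libraries 41.9% and 43.8%. The clones farthest from equal shares, 129 and G4, also had the lowest levels, 0.83 and 2.55 CPM.

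Mrpl48 (mm9, chr7:107697631-107756510), a large subunit protein, was not monoallelic anywhere but differed between clones. Its 129 share was 22.2% in mB4 (920 counts, interval 19.5% to 25%), 73.6%, 67.0% and 66.5% in the other XY clones, and 62.5%, 77.5%, 69.4% and 67.6% in the XX clones. In mB4 the 129 allele gave 2.93 CPM against 10.6 to 16.8 CPM elsewhere. The Cast allele gave 10.3 CPM, above the 4.59 to 7.19 CPM of the other clones. Mrpl48 overlaps exons of Rab6, whose own share in mB4 was 54.6%.

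Ndufb4, an accessory subunit of complex I, was called for 129 in mE6 (91.3%, 23 counts, interval 72.0% to 98.9%) and for Cast in mB4 (13.0%, 23 counts, 2.78% to 33.6%), and its share in the other clones ran from 27.3% to 75% on 24 to 79 counts. Mrps14, a small subunit protein, was testable in 2 clones, with 4.17% in clone 129 (24 counts, interval 0.105% to 21.1%) and 80% in mC3 (20 counts, 56.3% to 94.3%). These rest on few counts, and whether a read that spans several informative positions was counted once is not given in the sources used here, so the intervals may be too narrow.

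Other members leaned to the same allele in every testable clone. Mapping reads to a reference of a single strain can move shares the same way in all clones, which was not tested. Cox7a2l, a factor of respiratory supercomplexes, stood at 90.7%, 85.7%, 96.3% and 94.4% from the 129 allele in the XX clones and 89.4%, 81.4%, 86.2% and 89.1% in the XY clones, with 77.1% and 90.8% in the XX and XY ES libraries. It had 43 to 183 counts per library, and was monoallelic in 7 clones. Mrpl50 leaned to 129 at 72.2% to 78.2% in the 8 clones on 2685 to 4018 counts (74.8% ± 1.95, SD, n = 8) and at 84.9% and 78.6% in the ES libraries. Cox4i2 had a 129 share of 10.7%, 4.00%, 4.62%, 2.13% and 3.85% in 129, C2, G4, E1.2 and mB4, the clones with 20 counts or more. In the ES libraries, XX then XY, it was 28.9% and 43.3%, and there its level was higher. Skew in every testable clone was seen in 2 of the 128, beside 3.0% of autosomal genes. Monoallelic calls in every testable clone were made for 0 of the 128, beside 1.01%. Atp5h, a stalk subunit of complex V, lay near the threshold at 25.6% to 34.1% in the clones, but has 4 near-identical copies, and Cox5b, at 61.6% to 70.5%, has 2. The remaining skewed members, Mrpl41, Ndufb10, Mrpl51 and Cox7c, passed 70% only in 5, 1, 1 and 2 clones. Over the 8 clones they had 95 to 691 counts. The 129 share ran from 65.9% to 80.6% in Mrpl41. It lay on both sides of equal shares in Ndufb10 (31.3% to 73.6%), Mrpl51 (29.1% to 61.8%) and Cox7c (23.8% to 53.8%). Within 100 kb of the skewed members, 163 of 174 testable values of neighbouring genes in the same clones were biallelic (major allele at most 70%), beside 84.0% to 86.3% of all testable autosomal genes per clone. The 174 values come from 65 neighbours, many of them read in several clones, so the values are not independent.

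As a mean over the 8 clones, 31 members leaned to 129 and 35 to Cast by limma on log2((129 + 0.5)/(Cast + 0.5)), beside 52.4% of all autosomal genes tested, 26.7% and 25.6% each way. The largest was Cox7a2l (log2 3.11, SE 0.26, limma adjusted p = 3.02e-05), followed by Mrpl50 (log2 1.57, SE 0.06, limma adjusted p = 4.8e-07), and towards Cast it was Atp5h (log2 -1.23, SE 0.07, limma adjusted p = 2.9e-06). The part of mapping to a reference of a single strain in these means was not tested. Between NPC and ES the share moved towards 129 in 12 members and towards Cast in 14 of 127, beside 20.5% of genes, 10.5% and 10.1% each way. Mrps33 moved most, from 25.6% and 32.1% in ES to 41.2% to 64.8% in the clones (log2 1.54, SE 0.34, limma adjusted p = 0.0149) on few counts. These counts were less stable than the others: 4 members moved towards Cast without the XX ES library and 8 without mB4, and 6 moved towards 129 without the XY ES library and 7 without E1.2, mB4 or mG3.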

How the data were processed

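Polyadenylated RNA of 2 ES lines and 8 NPC clones was sequenced as read pairs. The authors' deposited table gives counts, the 129 share of those counts (a fraction from 0 to 1) and FPKM per gene and library. The submitters' processing notes name TopHat 1.4.0, Cufflinks 1.3.0, SAMtools and build mm9; how each column arose and how reads were counted are not given in the sources used here. Table starts count from 0 (2428 genes had the same end as, and a start 1 below, a GENCODE model), so printed mm9 starts are raised by 1.

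Counts were fitted across the whole table with edgeR 4.0.16 (TMM, filterByExpr, quasi-likelihood test, line as covariate, Benjamini-Hochberg adjustment over all genes tested). Log2(FPKM + 1) and log2 allele ratios were fitted with limma 3.58.1, and DESeq2 1.42.0 was an alternative. The scripts were tested on simulated data. Total counts of 61375911 to 119266777 per library set the precision, and intervals are exact binomial ones that cover counting error only. Per-clone medians used CPM + 0.05. Near-identical copies (at least 95% identity over at least 80% of the transcript) were found with BLAST 2.17.0 on mm9. Named were the 3 largest changes per subgroup among members that passed without overlap of the groups, all complex II members, paralog isoforms, members differing between lines, and members monoallelic in a clone or skewed in every testable clone; other skewed members and single genes beside a small count were named after their values were seen. The members, lists and tests were chosen with earlier results of these data known. Alternatives were other scalings and filters, FPKM, count and share thresholds, the shared library set, and leaving out each library.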

Additional observations from a re-analysis of the deposited data

Results flagged for a closer look

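In each group of 4 clones, a value was marked where its gap to the nearest other clone took up more of the group's range than Dixon's 95% critical value for 4 samples. Chance marks about 1 in 20 groups of genes taken at random, and 11 of 89 groups were marked. The groups were of genes chosen by their values, the shares being those of members skewed in at least 1 clone, so that this rate does not apply to them. For levels, 7 of the 8 marked values belonged to clone E1.2 of the XX line. Clone E1.2 was high for Atp5sl (91.6 CPM, the other XX clones 54.0 to 57.6), Sdhc (442, others 287 to 299), Atp5g3 (230 CPM, others 156 to 167), Sdhaf2 (39.3, others 31.1 to 31.3), Cox7a2 (26.1, others 15.8 to 16.9) and Ndufa4l2 (0.221, others 0 to 0.0305), and low for Mrps18c (4.61, others 5.96 to 6.22). Clone 129 was high for Mrps18b (3.57 CPM, others 2.16 to 2.33). For the 129 share, clone 129 stood apart for Mrpl36 (97.0%, others 44.5% to 49.96%), clone mB4 for Mrpl48 (22.2%, others 66.5% to 73.6%) and clone mG3 for Mrpl51 (61.8%, others 31.1% to 35.2%).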

How the results depend on the processing

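With the library set shared by ES and XY NPC, 7 members were higher and 0 ribosome members were higher; with library totals 2 ribosome members were higher. Leaving out 1 library, members higher ran from 7 to 15 and lower from 37 to 57, ribosome members higher from 2 to 4 and lower from 29 to 39, respiration members higher from 5 to 11 and lower from 8 to 18, members higher in the XX line from 8 to 15, members differing between XX and XY clones from 0 to 1, and share changes from 6 to 9 towards 129 and from 4 to 13 towards Cast. Between XX and XY clones DESeq2 called 11 members and limma on FPKM 2. For these tools, the shared library set and the fits without 1 library, shares over all genes were not recorded. Monoallelic in at least 1 clone were 6 members in all, 2 with at least 100 counts, 1 with at least 500 and 14 at a major allele of 70%; in some clones 3, and 1, 1, 10 and, at 95%, 1; in every testable clone 0, and 2 at 70%. These changes of threshold alter which genes can be called; for the other shifts the cause was not tested. Without members that have a near-identical copy (an alternative chosen after seeing the data), 51 members were lower and 11 higher. The other results over members stayed within 1.5 times their value. Of 620 values of named genes under an alternative, 552 kept direction and side of the threshold, 31 lost and 10 gained the call, and 27 changed sign, in 9 genes, of which Ndufb5 alone had passed. On log2(FPKM + 1) and log2(FPKM + 0.1), sign changes were Ndufb5 (-0.11 and -0.12), Sdha (0.0504 and 0.0507), Sdhc (0.0526 and 0.0528), Sdhd (0.0894 and 0.0902), Cox8a (0.13 and 0.13) and Mrps18c (-0.16 and -0.17). With the shared set they were Sdhd (0.00801), Cox8a (0.0638), Atp5g3 (0.0634) and Mrps18c (-0.16), and with other scalings Ndufa4 (-0.00671) and Cox7a2 (-0.11 and -0.0335). Leaving out 1 library, Cox7a2 ran from -0.0451 to 0.18, Cox8a from -0.0578 to 0.0499, Atp5g3 from -0.27 to 0.0495 and Mrps18c from -0.17 to 0.94. The labels name every clone, but match no XX clone to an XY clone and no clone to an ES library of its own. No pairing by clone was therefore possible. A clone shares its line with 1 ES library, which the line covariate takes into account. A fit that leaves out an ES library therefore takes its change from the other line alone, with 1 ES library and 4 clones. The shared library set likewise takes it from the XY line alone. Low counts limit, among others, Mrps33, Atp5l, Cox4i2, Cox7a2l, Ndufb4 and Mrps14.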
